A study of Mus musculus with 12 samples.

Results

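Regions of the mouse genome with peaks of wild-type Nrf2 and no peak of the Nrf2 AY protein are described here, from chromatin immunoprecipitation followed by sequencing (ChIP-seq) of peritoneal macrophages. The regions were chosen by the peak calls themselves: peaks of 6 ChIP lists were pooled, overlapping peaks were merged, and a region was kept if at least 2 of 3 wild-type (WT) libraries and 0 of 3 Nrf2 AY/AY (AY) libraries had a peak in it. This left 524 of 4147 union regions, 12.6% of the total, of which 216 (5.21%) had a peak in all 3 WT libraries and 308 in exactly 2. The reverse rule, at least 2 AY and 0 WT libraries, takes 805 regions or 19.4%. Because presence and absence of a peak made the set, those counts are a description and carry no test.

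Nrf2 is a transcription factor of the cap'n'collar family that is held at low levels by Keap1 and accumulates when electrophiles or oxidants modify that partner. It binds DNA as a heterodimer with a small Maf protein, at elements found near genes of glutathione synthesis, quinone detoxification, heme breakdown and NADPH supply, and in macrophages it is also known for restraining inflammatory gene expression. In the AY allele an alanine of the DNA-contacting surface is replaced by tyrosine, at a position where cap'n'collar factors and Maf proteins are known to differ. The comparison of genotypes asks at which sites under electrophilic stress a peak is found for the one protein and not for the other.

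Both genotypes were handled alike. Mice of 7 to 8 weeks received 4% thioglycolate broth in the peritoneum, macrophages were washed out 4 days later and cultured, and diethyl maleate, an electrophile known to raise the level of Nrf2 protein, was given to all of them at 100 µM for 4 hours before fixation with 1% formaldehyde for 10 min. WT cells carried the normal gene and AY cells were homozygous for the mutant allele; the labels give no strain and no untreated group. The labels call the cells peritoneal macrophages, and peak lists of 1 factor cannot check that identity. Each genotype had 3 ChIP libraries, with 826 to 1604 peaks per WT list (shortest in replicate 2, longest in replicate 1) and 1086 to 2154 per AY list (shortest in replicate 3, longest in replicate 1). Depth is unknown, since the lists give no read counts, so where a peak is missing the site was under the caller's threshold in that library and may still have been occupied.

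WT-only regions made up almost the same part of each WT list. WT replicate 1 held 508 of them, WT replicate 2 held 271 and WT replicate 3 held 485, which is 31.7%, 32.9% and 32.3% of the regions of those lists. Of all 1068 regions that at least 2 WT libraries held, 49.1% were WT-only, and the other 544 had a peak in at least 1 AY library. The members held by exactly 2 libraries were unevenly made. WT replicates 1 and 3 shared 253 of the 308 (82.1%), WT replicates 1 and 2 shared 39 (12.7%), and WT replicates 2 and 3 shared 16 (5.19%). The library most often missing was thus WT replicate 2, the shortest of the 6 lists. With the 826 highest-scoring peaks of every list, 219 regions were held by 3 and 195 by exactly 2.

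Peak strength was compared by relative rank, the rank of a peak by its score within its own list as a percentage of the list's length, so that 0 is the strongest end. WT-only regions held by 3 libraries had a median relative rank of 25.9% in WT replicate 1, 45.6% in WT replicate 2 and 29.4% in WT replicate 3. Members held by exactly 2 libraries lay at 54.4%, 72.8% and 57.8% in the same lists. The distance between the classes was 28.5, 27.2 and 28.4 percentage points, a mean of 28.0 ± 0.725 (SD, n = 3 libraries). The classes overlapped over most of their range in every list. None of the members held by 2 came within the first 100 peaks of any WT list, and the best of them ranked 179, 163 and 170 in WT replicates 1, 2 and 3.

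**Figure D1:**
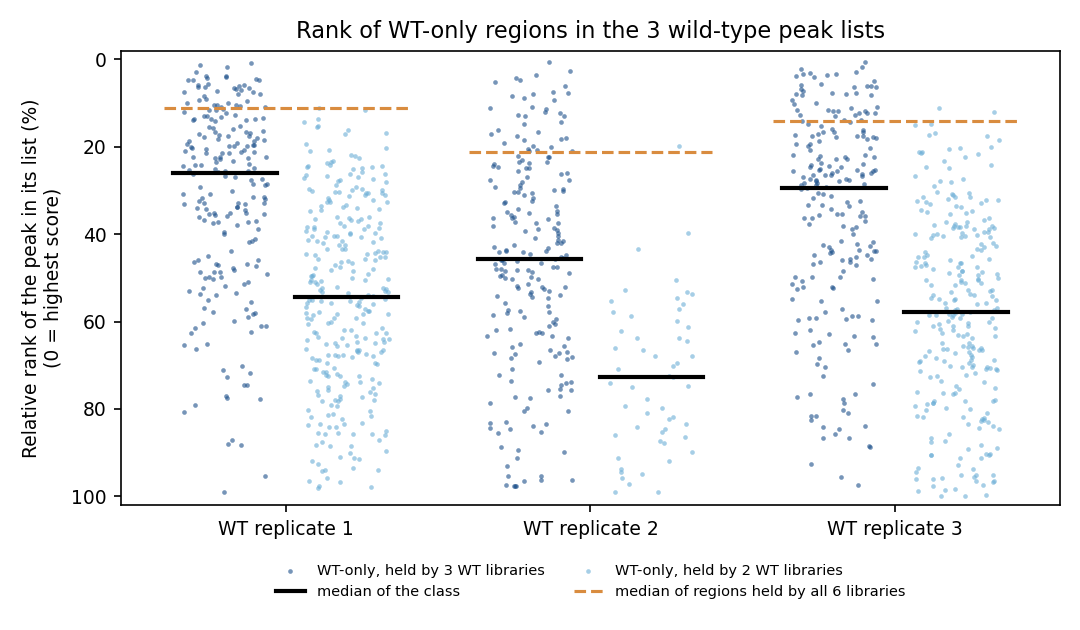
Relative rank (y axis, %, 0 at the top is the highest score) of each WT-only region in the 3 WT lists (x axis), dark points for regions held by 3 WT libraries and light points for those held by exactly 2. Black bars are class medians and dashed lines the medians of regions held by all 6 libraries; the dark class has its median between 25.9% and 45.6% and the light class between 54.4% and 72.8%.

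A few members were strong in every wild-type library. The first by mean relative rank, on chromosome 15 (53246089 to 53247120, mm9), had scores of 1177.94, 832.16 and 824.98 in WT replicates 1, 2 and 3, the 12th, 5th and 9th highest of those lists. Its nearest AY peak lay 2441 kb away. Of the 216 members held by 3 libraries, 11 were in the best 10% of all 3 WT lists and 38 in the best 25%. At the other end, 19 lay in the lower 50% of all 3 lists. The scores are the authors' own values for single peaks, and the highest score of a list (2460.28, 1542.26 and 3100 in WT replicates 1, 2 and 3) lay above that of any member.

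The members that follow the strongest ones were each in the best 20% of all 3 lists. The 11th in order, on chromosome 1 (163231227 to 163232060), had ranks of 116, 66 and 61 in WT replicates 1, 2 and 3. Chromosome 2 held 103345871 to 103346734, with ranks of 76, 90 and 76, and 22650938 to 22651789, with ranks of 218, 50 and 103. Both have an AY peak within 50 kb, at 25.1 kb and 48.5 kb. Chromosome 14 held 45659886 to 45660705, with ranks of 73, 134 and 56, and 104404161 to 104405265, with ranks of 95, 151 and 51. A region of chromosome 5 (114119831 to 114120725) had ranks of 67, 122 and 109. Each of these last 3 regions had its lowest rank in WT replicate 2. The member at 14840893 to 14841840 of chromosome 9 had ranks of 74, 141 and 94, and its nearest AY peak lay 1178 kb away. Chromosome 11 gave ranks of 174, 77 and 95 at 117642721 to 117643537. A member of chromosome 8 (71442071 to 71442881) had ranks of 133, 102 and 119 and an AY peak 3.28 kb away.

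Members held by exactly 2 libraries had their strongest examples in WT replicates 1 and 3. The first, on chromosome 19 (14639641 to 14640470), had ranks of 179 and 170 there, was missing from WT replicate 2, and lay 1590 kb from the nearest AY peak. Ranks were 229 and 225 for 125955275 to 125956074 of chromosome 7. They were 244 and 268 for 97204735 to 97205475 of chromosome 1, and 259 and 308 for 67609481 to 67610257 of chromosome 18. These 4 had ranks close to each other in the 2 lists that held them. A region of chromosome 4 (117588918 to 117589732) was uneven, with ranks of 187 and 495. Of the 10 best in this class, chromosome 15, 36144131 to 36144876, was the 1 that WT replicate 2 held; it ranked 360 in WT replicate 1 and 163 in WT replicate 2 and was missing from WT replicate 3. In this class 10 regions were in the best 25% of both lists that held them and 131 in the lower 50% of both. The weakest members were just past the caller's limit. Chromosome 13, 75931325 to 75931771, had scores of 50.19 in WT replicate 2 and 51.81 in WT replicate 3, where no list holds a score below 50.

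The share of WT-only regions was highest in the middle of each list. In WT replicate 1 they were 20.6% of the regions in the strongest 10% of peaks, 48.1% between 30% and 40% of the way down the list, and 11.2% in the last 10%. WT replicate 2 had 15.9% in its first 10% and at most 47.0%, between 40% and 50%. WT replicate 3 had 18.2% at the start and at most 42.8%, between 30% and 40%. Regions with an AY peak took 79.4%, 84.1% and 79.7% of the first 10% of the lists of WT replicates 1, 2 and 3. The classes of member had different places in this order. Those held by 3 libraries were most frequent between 10% and 20% of the list in WT replicate 1 (29.4%), between 40% and 50% in WT replicate 2 (45.8%) and between 20% and 30% in WT replicate 3 (29.6%). Those held by exactly 2 were absent from the first 10% of each list.

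**Figure D2:**
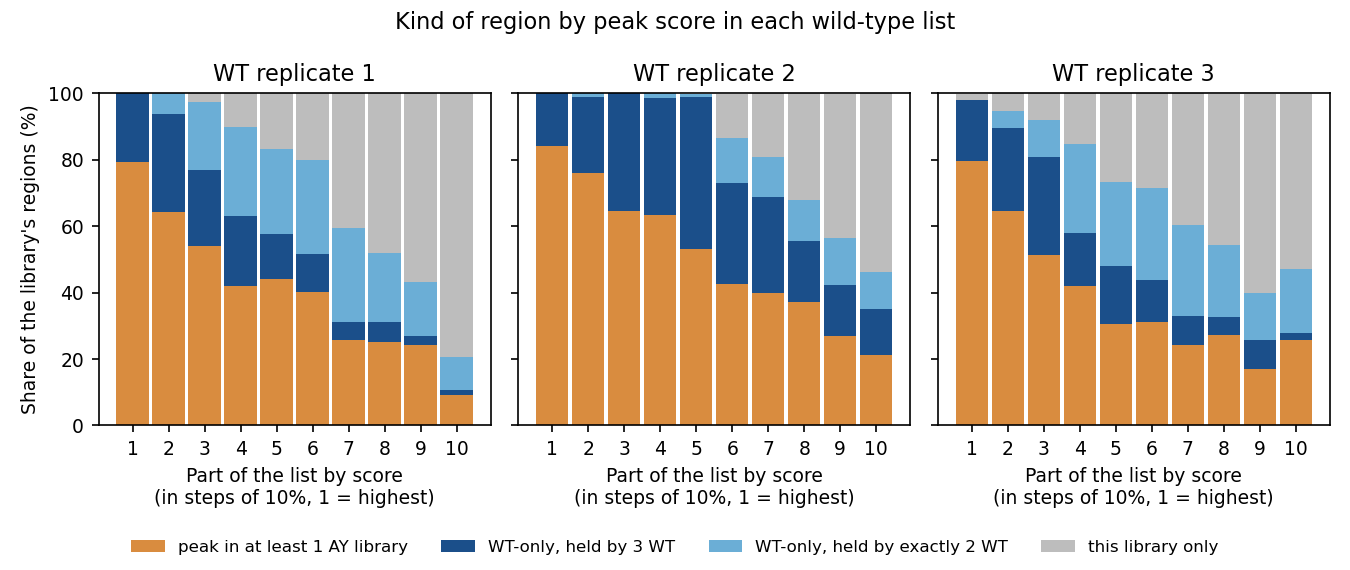
Share of each WT library's regions (y axis, %) in steps of 10% of the list from the highest to the lowest score (x axis), for regions with a peak in at least 1 AY library, WT-only regions held by 3 or by exactly 2 WT libraries, and regions of that library alone. The share with an AY peak is 79.4% to 84.1% in the first step, and WT-only regions are most frequent in step 4 or 5.

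Presence in the third WT library went with strength in the other pair. Of 469 regions without an AY peak that WT replicates 1 and 3 shared, WT replicate 2 held 216 (46.1%). It held 83 of the 95 with a mean relative rank in the best 25% of those 2 lists (87.4%), 85 of 159 between 25% and 50% (53.5%), 42 of 166 between 50% and 75% (25.3%) and 6 of 49 beyond 75% (12.2%). Regions that did have an AY peak showed the same order, with 95.0%, 60.1%, 38.1% and 6.67% held by WT replicate 2 in those 4 bins, the last of them 1 of 15 regions. WT replicate 1, the longest WT list, held 93.1% of the 232 regions without an AY peak that the other pair shared, and WT replicate 3 held 84.7% of 255. Regions of 1 WT library and no AY library, which fall just outside the rule on the wild-type side, numbered 997, with median relative ranks of 79.9%, 84.1% and 74.2% in WT replicates 1, 2 and 3.

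**Figure D3:**
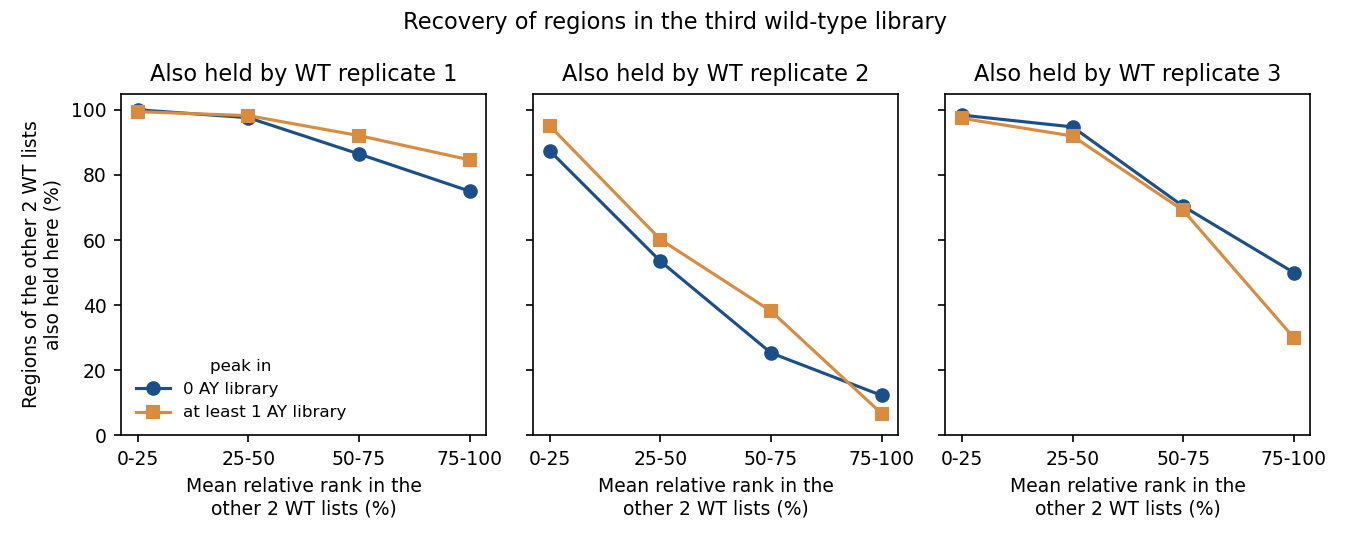
Share of the regions held by 2 WT libraries that the third also held (y axis, %), against their mean relative rank in those 2 lists (x axis, in steps of 25% of the list), for regions with and without an AY peak. For WT replicate 2 the share without an AY peak goes from 87.4% in the strongest step to 12.2% in the weakest, and the points of the weakest step rest on 10 to 49 regions.

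Regions of both genotypes were the stronger ones in the wild-type lists. Among regions held by all 3 WT libraries, the median relative rank averaged over the WT lists was 33.6% ± 10.5 with no AY peak, 26.5% ± 7.97 with a peak in 1 AY library, 29.6% ± 8.85 in 2 and 15.4% ± 5.24 in 3 (SD over the 3 WT lists). In each list the regions with no AY peak had the lowest standing of these 4 sets. Against regions with 1 AY library the medians were 25.9% and 18.1% in WT replicate 1, 45.6% and 33.9% in WT replicate 2 and 29.4% and 27.6% in WT replicate 3. WT-only regions held by 3 stood below regions held by all 6 libraries in each list, with 25.9% against 11.1% in WT replicate 1, 45.6% against 21.2% in WT replicate 2 and 29.4% against 14.0% in WT replicate 3.

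Just outside the rule on the mutant side were 149 regions held by at least 2 WT libraries and a single AY library. That library was AY replicate 1, with the longest list of the 6, in 125 cases, AY replicate 2 in 14 and AY replicate 3 in 10. In AY replicate 1 these peaks had a median score of 80.11, where the whole list had 118.79, and 105 of the 125 were in the lower 50% of the list. The closest to membership was chromosome 16, 44990907 to 44991646, with ranks of 141, 187 and 152 in the WT lists and of 2150 among the 2154 peaks of AY replicate 1. Chromosome 6, 39175611 to 39176425, had ranks of 212, 282 and 297 in the WT lists and of 2139 in AY replicate 1. Without AY replicate 1, 649 regions would be WT-only.

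Member peaks were compact and placed alike in the wild-type libraries. The median peak width was 706, 513 and 578.5 bases in WT replicates 1, 2 and 3 for regions held by 3 libraries, and 579, 376 and 492 bases for those held by exactly 2. The first class was wider by 117 ± 26.7 bases (SD, n = 3 libraries). The classes also differ in rank, as given above, and the part of rank in the difference of width was not tested. In 521 of the 524 regions each library that held the region had a single peak. The centres of the peaks of 2 WT libraries lay a median of 36 to 38.5 bases apart in regions held by 3, against 31.5 to 36.5 bases in regions held by all 6 libraries. For members held by exactly 2, the offset was 43 bases between WT replicates 1 and 3 (253 regions), 61.5 between WT replicates 1 and 2 (39 regions) and 69.2 between WT replicates 2 and 3 (16 regions). Across the 216 regions held by 3, Spearman's rho of the ranks was 0.694, 0.660 and 0.582 for WT replicates 1 with 2, 1 with 3 and 2 with 3, a description over regions that share their libraries. For members held by exactly 2 it was 0.290 over the 253 regions of WT replicates 1 and 3, 0.135 over the 39 of WT replicates 1 and 2 and 0.165 over the 16 of WT replicates 2 and 3.

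Some members differed widely between wild-type libraries. Chromosome 6, 34300039 to 34300809, ranked 207 and 189 in WT replicates 1 and 3 and 795 of 826 in WT replicate 2, the largest spread of relative rank (83.9 percentage points). Ranks were 243, 705 and 509 for 4199722 to 4200576 of chromosome 16 and 293, 738 and 908 for 98356214 to 98357008 of chromosome 15. In the 5 members with the largest spread it was WT replicate 2 that ranked the region lowest in its list. The median spread over the 216 regions was 23.9 percentage points, and 34 of them stayed within 10 points.

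The widest members were few and mostly held by exactly 2 libraries. Over 1500 bases were 5 regions, among them 3779 bases on chromosome 8 (20034087 to 20037865), 3080 bases on random sequence of chromosome 8 and 2347 bases on random sequence of chromosome 4. Their peaks were weak, with scores of 60.25 in WT replicate 2 and 106.84 in WT replicate 3 for the first. The exception was chromosome 2, 167751094 to 167752661, held by 3 libraries with ranks of 97, 272 and 181, where the peak was 1568 bases wide in WT replicate 1, 600 in WT replicate 2 and 1402 in WT replicate 3.

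Distances from WT-only regions to the nearest peak of the mutant were close to those of other regions without a peak of the other genotype. The nearest AY peak of any library lay a median of 143 kb away, more than 100 kb away for 57.8% of the 524 regions, within 50 kb for 153 (29.2%), within 10 kb for 55 and within 1 kb for 6. For the 997 regions of 1 WT and 0 AY libraries the median was 151 kb, with 56.4% beyond 100 kb, and from AY-only regions to any WT peak it was 169 kb, with 60.9% beyond 100 kb. By library the median for WT-only regions was 164 kb to AY replicate 1, 316 kb to AY replicate 2 and 446 kb to AY replicate 3, a mean of 309 ± 141 kb (SD, n = 3), in the order of the lengths of their lists. To any AY peak the median distance was 143 kb for members held by 3 and 139 kb for those held by exactly 2. It was 161 and 166 kb to AY replicate 1, 297 and 334 kb to AY replicate 2 and 525 and 425 kb to AY replicate 3, so neither class was the nearer one in every library.

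**Figure D4:**
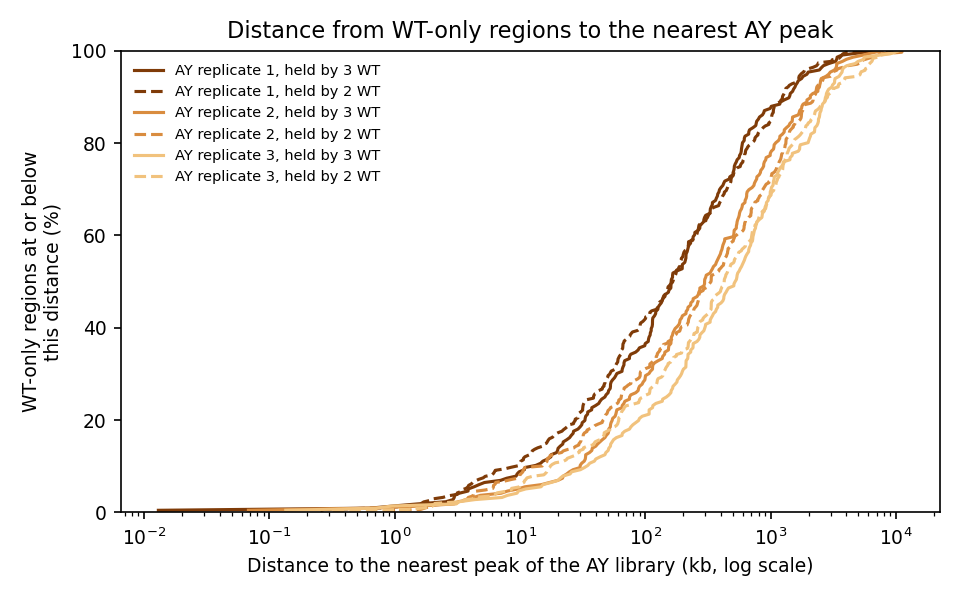
Cumulative share of WT-only regions (y axis, %) by distance to the nearest peak of each AY library (x axis, kb, log scale), full lines for regions held by 3 WT libraries and dashed lines for those held by exactly 2. Over all members the medians are 164, 316 and 446 kb for AY replicates 1, 2 and 3. For regions held by 3 they are 161, 297 and 525 kb, and for those held by exactly 2 they are 166, 334 and 425 kb.

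At a few places the mutant's peak was next to the wild-type one. On chromosome 8, 36619723 to 36620358 was held by the 3 WT libraries with ranks of 721, 597 and 271, and 13 bases from its edge an AY-only region (36618921 to 36619709) was held by the 3 AY libraries with ranks of 695, 532 and 292. The peaks of the 2 genotypes abutted there without overlap, and a merging distance of 1 kb joins them into a region of all 6 libraries. A second kind was seen on chromosome 7, where 148579886 to 148580773 ranked 119, 72 and 121 in WT replicates 1, 2 and 3. Its nearest AY peak, 633 bases away, lies in a region held by all 6 libraries. That region had ranks of 8, 8 and 18 in the WT lists and of 662, 1014 and 364 in the AY lists. On chromosome 6, 31071500 to 31072063 was held by WT replicates 1 and 3 (ranks 1155 and 872), with its nearest AY peak 780 bases away. That peak lies in a region with ranks of 53, 55 and 178 in the WT lists. That neighbour had ranks of 660 and 503 in AY replicates 1 and 2 and no peak in AY replicate 3. At both places the neighbour stood far higher in the wild-type lists than in the mutant ones. The other 2 of the 5 nearest cases lay on unplaced sequence, 255 and 273 bases from an AY peak.

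WT-only regions were spread over all 19 autosomes, with 10 to 42 on each and 510 in all. As a share of the union regions of the chromosome they ranged from 6.50% on chromosome 4 to 20.7% on chromosome 9. The remaining 14 were 10 regions on X and 4 on random or unplaced sequence, and none of these 14 was held by 3 libraries. WT-only regions were 5.49% of the 182 union regions of X. Of the 20 X regions held by at least 2 WT libraries, 10 were WT-only, against 49.1% of such regions in all. WT replicates 1 and 3 shared 18 of those 20. All 10 WT-only X regions were held by WT replicates 1 and 3 and missing from WT replicate 2. Those 2 libraries had no peak on Y, against 15 to 27 in the other 4 libraries. On X they had 46 of 1604 peaks (WT replicate 1) and 121 of 1533 (WT replicate 3). WT replicate 2 had 12 of 826 there. AY replicates 1, 2 and 3 had 29 of 2154, 29 of 1441 and 24 of 1086. The sex of the animals is not in the labels and its part in the 10 X regions was not tested. The same holds for all 253 members held by WT replicates 1 and 3 alone. Their presence followed the split by Y peaks in every library, since WT replicate 2 and all AY libraries had such peaks. In the AY libraries that split cannot be told apart from genotype. In WT replicate 2 it cannot be told apart from the shortest list of the series. The 216 members held by 3 did not follow the split, since WT replicate 2 held them too. On autosomes alone, 216 regions were held by 3 and 294 by exactly 2. WT replicate 3 had 16 bins of 1 Mb with at least 5 of its peaks and more than 2 times the peaks of any other library; 7 members held by exactly 2 libraries lay in these bins, and 0 held by 3.

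Some members lay together. With a gap of at most 100 kb between neighbours, 435 members stood alone, 70 formed pairs and 19 fell into 6 groups of 3 or 4. The largest group was on chromosome 6, 31071500 to 31217828, with 4 members over 146 kb. Its strongest member, 31126624 to 31127435, ranked 186, 157 and 98 in WT replicates 1, 2 and 3. A stretch of chromosome 2 held 3 members within 44.6 kb (71175886 to 71220482), with no AY peak within 105 kb and no other region between them. The first of these, 71175886 to 71176738, ranked 149, 171 and 387. On chromosome 1, 3 members between 193021474 and 193105605 flanked 2 regions held by all 6 libraries. The member held by 3 libraries (193049140 to 193049855) had ranks of 495, 660 and 613. The nearer of the regions of both genotypes, whose nearest AY peak was 4.24 kb away, stood far higher. Its ranks were 58, 87 and 73 in the WT lists and 16, 13 and 13 in the AY lists. Groups on chromosome 16 (22091107 to 22121827), chromosome 6 (89318437 to 89372564) and chromosome 8 (129279346 to 129331808) had 3 members each.

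The region with the best mean rank of the series, on chromosome 10 (67175526 to 67176537) and held by all 6 libraries, had a WT-only region on either side. At 65.2 kb, 67109490 to 67110287 ranked 144, 100 and 141 in the WT lists. At 372 kb, 67548136 to 67548795 ranked 380 and 281 in WT replicates 1 and 3.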

How the data were processed

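ChIP-seq peak lists of 6 libraries (3 WT, 3 AY) were analysed; the 6 input libraries were not analysed here. The build was mm9 and the tools were MACS 1.4, Bowtie2 and bcl2fastq 2.15.0, per the submitters' processing notes; the sources used here state no settings. Each library has its own list, in which the authors deposited a score for every peak. The deposited score was never below 50 and was read as -10 log10 of the p-value (50 being 1e-05); it was used to rank peaks within a list, since it moves with depth and control.

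Peaks overlapping by at least 1 bp were merged with Python 3.11.15 and pandas 2.3.3, and the best peak of each library in a region was used. Coordinates count from 1. Every value is a description, since the peak calls that chose the members also gave the values; no test was made. The labels do not say that libraries came from separate animals, so SDs measure the spread between libraries, which may be technical. Regions are named by rank within each class (best and weakest), width, spread of rank, nearness of an AY peak, grouping, or a place just outside the rule; examples of each are given, and those beside the top region of chromosome 10 were added after their values were seen. The members and all lists and rules were chosen with earlier results of these data known. The gene table at hand is on GRCm38, so no gene was assigned, and motif shares were not computed. The merging was tested on simulated data.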

Additional observations from a re-analysis of the deposited data

How the results depend on the processing

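Of 524 WT-only regions, 206 had a score of at least 100 in 2 or more WT libraries. When peaks under 100 were dropped from every list, 287 regions were WT-only, 134 held by 3 and 153 by exactly 2, and 206 of the 524 were kept; AY peaks are dropped too, which lets regions in. The class difference in width was then 78.8 bases and the mean distance to AY peaks 685 kb. With the 826 highest-scoring peaks of each list, 414 regions were WT-only, 219 held by 3 and 195 by exactly 2, so that the larger class was then the one held by 3; the rank difference was 28.9 percentage points, the width difference 88.5 bases and the distance 526 kb, and 291 of the 524 were kept. Without each library in turn, 232 to 649 regions were WT-only, 232 without WT replicate 1 and 255 without WT replicate 3, where both remaining WT libraries had to hold a region; 469 remained without WT replicate 2. The rank difference was 28.3 to 29.0 percentage points when an AY library was left out, highest without AY replicate 1. No value changed sign. An overlap of 50% of the shorter peak, merging up to 1 kb and numbered chromosomes with X gave 524, 516 and 520 WT-only regions. Without a WT library the 2 classes cannot be formed. Settings for motif form and window were not run. No paired analysis was possible because no result comes from a test. Unknown depth limits every absence of a peak.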

Other observations

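WT-only regions and AY-only regions lay within 10 kb of each other in 17 pairs, which involve 16 WT-only regions. In 2 of the pairs all 3 WT libraries faced all 3 AY libraries. One is the abutting pair on chromosome 8, and the other is on chromosome 5, where 76607753 to 76608387 ranked 831, 788 and 1314 in WT replicates 1, 2 and 3 and, 3000 bases away, 76603909 to 76604752 ranked 380, 512 and 693 in AY replicates 1, 2 and 3. On chromosome 11, 75379912 to 75380526 was held by WT replicates 1 and 2 (ranks 853 and 359) and lay 1609 bases from an AY-only region with ranks of 128, 190 and 260. Also on chromosome 5, 17347880 to 17348506 was held by WT replicates 1 and 3 (ranks 1132 and 494) and had an AY-only region on either side, 1703 and 7714 bases away, each held by the 3 AY libraries.

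Neighbours of WT-only regions were of every kind. Within 50 kb of the 524 regions, another WT-only region was found in 61 cases (11.6%), a region of at least 2 WT and at least 1 AY library in 58 (11.1%) and an AY-only region in 63 (12.0%). Of the 805 AY-only regions, 170 (21.1%) had another AY-only region that near. AY-only regions were more numerous and so offered more possible neighbours, and the difference from WT-only regions was not tested. Of the regions with at least 2 WT and at least 1 AY library, 38 of the 63 within 50 kb of one stood higher in the WT than in the AY lists (60.3%), and 302 of the other 481 did (62.8%); the difference between these shares was not tested.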
